A study of Mus musculus with 22 samples.

Results

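The genes described here mark 2 ends of the path from B cell to plasma cell. They were chosen by name, and every row whose gene symbol equalled Ms4a1, Cd79a, Pax5, Cr2, Prdm1, Irf4, Mzb1 or Sdc1 was taken. All 8 symbols were found, each once, among the 46078 genes of the table. The 4 B cell genes were Ms4a1, Cd79a, Pax5 and Cr2, and the 4 plasma cell genes were Prdm1, Irf4, Mzb1 and Sdc1.

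B cells carry the antigen receptor on their surface and keep their identity through transcription factors, of which Pax5 is the central one. When a B cell is activated, Irf4 rises and switches on Prdm1, whose product Blimp-1 silences Pax5 and the genes it sustains, and the cell becomes a plasma cell that secretes antibody. In the colon, B cells gather in lymphoid follicles and patches of the wall, while plasma cells lie scattered in the lamina propria and release IgA.

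RNA sequencing of distal colon gave 22 libraries in 3 groups. C57BL/6 mice aged 14 weeks were the controls (n = 8, 4 males and 4 females), and Winnie mice of the same age made the second group (n = 7, 3 males and 4 females). Winnie mice carry a missense mutation in the mucin gene Muc2 on the C57BL/6 background and develop colitis without further treatment. The third group, Winnie-Prolapse, consisted of Winnie mice with a rectal prolapse aged 18 weeks (n = 7, 4 males and 3 females). Age and prolapse therefore cannot be told apart. RNA came from tissue segments with no sorting of cells, and totals lay between 24.8 and 36.3 M counts. In Winnie-Prolapse replicate 6, 18% of the counts came from 6 milk protein genes. Of these, 4 passed the filter against C57BL/6, and 4 were called higher in Winnie-Prolapse at an adjusted p under 0.05 and at least 1.5-fold with edgeR, against 0 in Winnie (0 also at an unadjusted p under 0.05), where 16.7% and 7.42% of all genes were called higher. The 6 genes summed to 54.2 CPM in Winnie-Prolapse replicate 5, 2.52 to 4.36 CPM in the group's remaining libraries and 1.85 to 3.81 CPM in C57BL/6. The calls thus rest mainly on replicate 6 and do not describe the group. The defining marker genes of colon epithelium, such as Epcam, Krt8 and Cdx2, were counted in every library. Their levels were not all even, since Cdx2 ran from 2.32 to 315 CPM within C57BL/6.

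Promoter sequences were available from RefSeq (GRCm38.p6) for 6 of the 8 genes, and 4 of them are shown as examples of how the genes varied. Cd79a stands for the B cell genes, which moved together from mouse to mouse, Prdm1 and Irf4 for the plasma cell genes that rose, and Sdc1 for the one that was not called. Each sequence runs 5′ to 3′ on the strand of the gene and holds up to 250 bases before the RefSeq start, cut where GENCODE M21 places an exon. Capitals mark matches, on either strand, to the E-box CAGGTG, which the B lineage factor E2A binds, to the GC box GGGCGG of Sp1 and to the TATA box TATAAA. The Cd79a window lies at chr7:24897247-24897380 (plus strand), Prdm1 at chr10:44458749-44458998 (minus strand), Irf4 at chr13:30748983-30749225 (plus strand) and Sdc1 at chr12:8771146-8771322 (plus strand).
Cd79a: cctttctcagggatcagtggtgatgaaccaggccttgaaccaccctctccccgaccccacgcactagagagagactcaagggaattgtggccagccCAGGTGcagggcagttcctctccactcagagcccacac
Prdm1: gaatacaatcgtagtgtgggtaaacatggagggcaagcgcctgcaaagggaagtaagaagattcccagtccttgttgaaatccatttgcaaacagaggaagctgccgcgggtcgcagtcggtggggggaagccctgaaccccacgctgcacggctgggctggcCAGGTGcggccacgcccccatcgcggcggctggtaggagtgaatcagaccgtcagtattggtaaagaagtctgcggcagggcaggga
Irf4: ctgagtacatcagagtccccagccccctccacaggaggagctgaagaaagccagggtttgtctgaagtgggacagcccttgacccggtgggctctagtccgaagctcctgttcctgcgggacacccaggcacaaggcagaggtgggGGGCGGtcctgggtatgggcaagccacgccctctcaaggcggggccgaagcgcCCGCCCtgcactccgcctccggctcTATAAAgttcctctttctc
Sdc1: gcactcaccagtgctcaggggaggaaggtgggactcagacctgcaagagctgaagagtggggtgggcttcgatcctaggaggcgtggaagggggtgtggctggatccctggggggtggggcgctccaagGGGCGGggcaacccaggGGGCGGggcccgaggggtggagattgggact

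The shares of other promoters with a match were counted over 32851 windows of 300 bases. CAGGTG was found in 20.2% of them, GGGCGG in 35.7% and TATAAA in 13.6%. CAGGTG was present in Cd79a, Cr2 and Prdm1, GGGCGG in Pax5, Cr2, Irf4 and Sdc1, and TATAAA in Irf4. The CAGGTG and GGGCGG searches were added after the windows had been read. The octamer ATGCAAAT (1.74% of windows), the palindromic EBF site (0.904%), the ETS and IRF composite element (2.72%), the interferon response element (3.44%), the NF-kB site (1.47%) and the element TGACGTGG bound by Xbp1 (0.676%) had no match in the 6 windows. The RefSeq start of Prdm1 lies inside the longer GENCODE gene. A match describes the letters only and is no evidence of binding.

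The first question was whether B cell and plasma cell genes changed in the same way with colitis. Prdm1, Irf4 and Mzb1 were higher in both Winnie groups than in C57BL/6 (edgeR, adjusted p under 0.05 and at least 1.5-fold). None of the 4 B cell genes was called in either comparison. At that level 7.42% of all genes were called higher in Winnie and 16.7% in Winnie-Prolapse, so 0 of 4 is near those shares. Prdm1 was 4.12-fold higher in Winnie and 6.96-fold higher in Winnie-Prolapse than in C57BL/6, Mzb1 was 3.32-fold and 5.14-fold higher, and Irf4 was 2.44-fold and 3.09-fold higher. Sdc1, the gene of the plasma cell surface marker CD138, had fitted ratios of 0.974 and 1.17 and was not called. Whether the change of the plasma cell genes differed from that of the B cell genes was not tested. In whole tissue, fewer cells of a type and less RNA per cell cannot be told apart.

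A gene was called with edgeR at an adjusted p under 0.001 and at least 1.5-fold, and a second rule used an adjusted p under 0.05. In Winnie against C57BL/6, 1 of 8 genes (Prdm1) was called by the first rule, against 0.0868% of all genes tested that were called higher. That share, 15 of 17289 genes, was not stable, since 436 genes of 17413 were called higher without Winnie replicate 5, between 0 and 27 without any other single library, and 771 with DESeq2. The second rule called 3 of 8 (Prdm1, Irf4 and Mzb1), with 7.42% of all genes called higher. In Winnie-Prolapse against C57BL/6 the same 3 genes were called by both rules, where 9.84% and 16.7% of all genes were called higher. In Winnie-Prolapse against Winnie, 0 of 8 were called by either rule, where 0% and 4.27% of all genes were called higher. In that comparison 1 of the 8, Prdm1, had an unadjusted edgeR p under 0.05. At that level 2448 of 17041 genes were higher and 2295 lower. DESeq2 called 0 of the 8 by the first rule and 1 by the second, while it called 487 and 1647 of 29471 genes higher. The comparisons with C57BL/6 use the same control libraries and are not independent of each other.

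**Figure D1:**
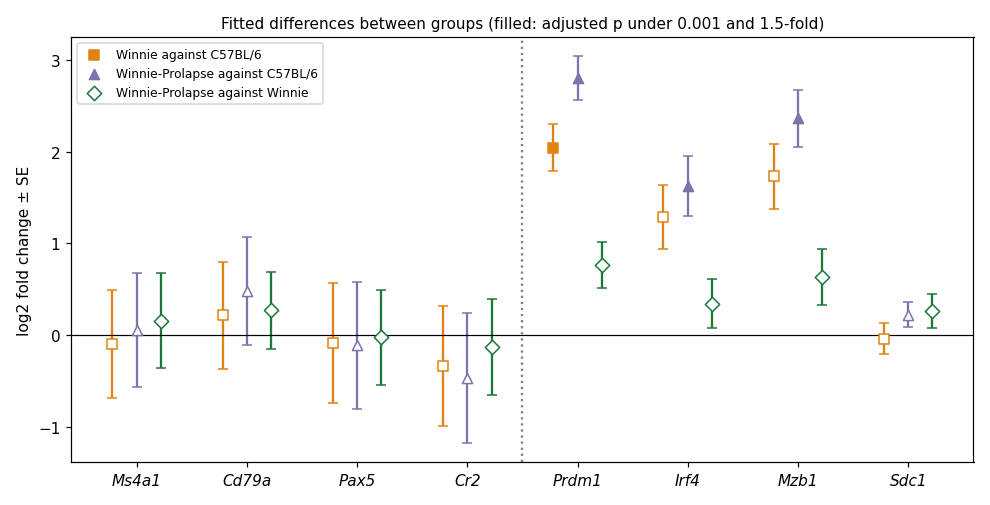
Fitted log2 fold change (y axis) of each gene (x axis) in the 3 comparisons, with bars of 1 SE. Filled points were called at an adjusted p under 0.001 and 1.5-fold. The 4 B cell genes left of the dotted line lie between -0.47 and 0.48 with long bars, while Prdm1, Irf4 and Mzb1 lie between 1.29 and 2.80 in both comparisons with C57BL/6.

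Prdm1 encodes Blimp-1, the repressor that ends the B cell programme. Its gene lies on chromosome 10 from 44437177 to 44528501 (minus strand, GRCm38). The tissue was not sorted, so the cells that gave the Prdm1 counts, plasma cells or others, were not resolved. Prdm1 levels, as CPM (counts per 1000000 counts of the library), ran from 2.83 to 9.68 with a median of 5.23 in C57BL/6, from 8.83 to 30.04 with a median of 22.8 in Winnie, and from 22.8 to 54.6 with a median of 33.5 in Winnie-Prolapse. All 7 Winnie-Prolapse libraries lay above every C57BL/6 library, and 6 of 7 Winnie libraries did. The exception was Winnie replicate 5, whose 8.83 CPM fell just under the 9.68 CPM of C57BL/6 replicate 5. The log2 fold change of Prdm1 was 2.04 ± 0.26 (SE, adjusted p = 0.000937) in Winnie and 2.80 ± 0.24 (SE, adjusted p = 4.83e-07) in Winnie-Prolapse, both against C57BL/6. Winnie-Prolapse exceeded Winnie by 0.76 ± 0.25 (SE, adjusted p = 0.0664), which did not pass, although 6 of 7 Winnie-Prolapse libraries lay above all Winnie libraries.

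The Winnie call of Prdm1 stood close to its limit. It was kept in 4 of 15 fits that left out 1 library, with adjusted p between 2.07e-05 and 0.00331, the highest without C57BL/6 replicate 6. In males alone the log2 fold change in Winnie was 2.62 (adjusted p = 0.000241) and in females alone 1.52 (adjusted p = 0.171). The edgeR test of that difference gave 1.09 ± 0.43 for males minus females (SE, unadjusted p = 0.0206, adjusted p = 0.297) and did not pass. In Winnie-Prolapse against C57BL/6 Prdm1 was called in 15 of 15 such fits and in each sex alone.

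Irf4 encodes a transcription factor that is low in resting B cells and high in plasma cells, and that activated T cells and some dendritic cells also use. It lies on chromosome 13 from 30749226 to 30766976 (plus strand). Irf4 ran from 1.59 to 9.26 CPM with a median of 3.42 in C57BL/6, from 5.75 to 15.0 with a median of 8.43 in Winnie, and from 8.47 to 17.8 with a median of 13.9 in Winnie-Prolapse. The groups overlapped, since C57BL/6 replicate 5 reached 9.26 CPM, and 3 of 7 Winnie and 4 of 7 Winnie-Prolapse libraries lay above it. The log2 fold change of Irf4 was 1.29 ± 0.35 (SE, adjusted p = 0.0171) in Winnie and 1.62 ± 0.33 (SE, adjusted p = 0.000818) in Winnie-Prolapse. Winnie-Prolapse exceeded Winnie by 0.34 ± 0.27 (SE, adjusted p = 0.43). The Winnie-Prolapse call at 0.001 was kept in 5 of 15 fits without 1 library, and its adjusted p was highest, at 0.00265, without Winnie-Prolapse replicate 7.

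Mzb1 encodes a chaperone of the endoplasmic reticulum that helps assemble and secrete antibody. Mzb1 ran from 1.301 to 5.11 CPM with a median of 4.06 in C57BL/6, from 4.59 to 17.9 with a median of 11.5 in Winnie, and from 11.1 to 23.5 with a median of 17.5 in Winnie-Prolapse. As with Prdm1, the Winnie-Prolapse and C57BL/6 ranges did not touch, and Winnie replicate 5 was the only Winnie library inside the C57BL/6 range. Non-overlap of this kind, with the higher group above, was found for 6.5% of all genes in Winnie-Prolapse against C57BL/6, for 0.463% in Winnie against C57BL/6 and for 0.411% in Winnie-Prolapse against Winnie. It held for 2 of the 8 genes, 0 of 8 and 0 of 8, respectively. The log2 fold change of Mzb1 was 1.73 ± 0.36 (SE, adjusted p = 0.00534) in Winnie and 2.36 ± 0.31 (SE, adjusted p = 1.85e-05) in Winnie-Prolapse. Winnie-Prolapse exceeded Winnie by 0.63 ± 0.31 (SE, adjusted p = 0.192), which did not pass. In Winnie-Prolapse against C57BL/6 the 0.001 call was kept in 15 of 15 fits without 1 library, but not in males alone (adjusted p = 0.00462) or in females alone (adjusted p = 0.00609). In Winnie Mzb1 was called by the 0.001 rule in 0 of 15 such edgeR fits, with adjusted p between 0.00125 and 0.015. Mzb1 shares part of its span with SPATA24 on the same strand, so reads may have been split between them.

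Sdc1 encodes syndecan-1, a cell surface proteoglycan used to stain plasma cells that epithelial cells also carry in large amounts. It lies on chromosome 12 from 8771323 to 8793715 (plus strand). Sdc1 ran from 162 to 249 CPM with a median of 224 in C57BL/6, from 132 to 272 with a median of 206 in Winnie, and from 181 to 362 with a median of 204 in Winnie-Prolapse. The ranges overlapped throughout, and the log2 fold change was -0.04 ± 0.17 (SE, adjusted p = 0.885) in Winnie and 0.22 ± 0.14 (SE, adjusted p = 0.191) in Winnie-Prolapse. Both Winnie-Prolapse libraries above the C57BL/6 range, replicate 2 with 362 CPM and replicate 4 with 317 CPM, also held high counts of 7 squamous epithelium markers, which summed to 1616 and 852 CPM there. Replicate 7 had the highest sum, 2636 CPM, with an Sdc1 level of 204 CPM. These 7 markers summed to 1.88 to 2.90 CPM in C57BL/6, 1.54 to 47.8 in Winnie and 1.51 to 2636 in Winnie-Prolapse. Only 3 of the 7 passed the filter in Winnie-Prolapse against C57BL/6. Of these, Krt5 had a mean of 0.277 CPM in C57BL/6 and 204 CPM in Winnie-Prolapse. It passed through the libraries where it was high, so a count of calls decides nothing here. Winnie-Prolapse exceeded Winnie in Sdc1 by 0.26 ± 0.19 (log2, SE, adjusted p = 0.38). Of 10 colon epithelium markers, 1 was called higher by the 0.05 rule in each Winnie group against C57BL/6, near or under the 7.42% and 16.7% of all genes. In Winnie-Prolapse 2 were called lower by the 0.001 rule, Slc26a3 at -2.55 ± 0.51 and Car1 at -2.98 ± 0.40 (log2, SE), where 8.47% of all genes were called lower. The part of either epithelium in the Sdc1 level was not tested.

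**Figure D2:**
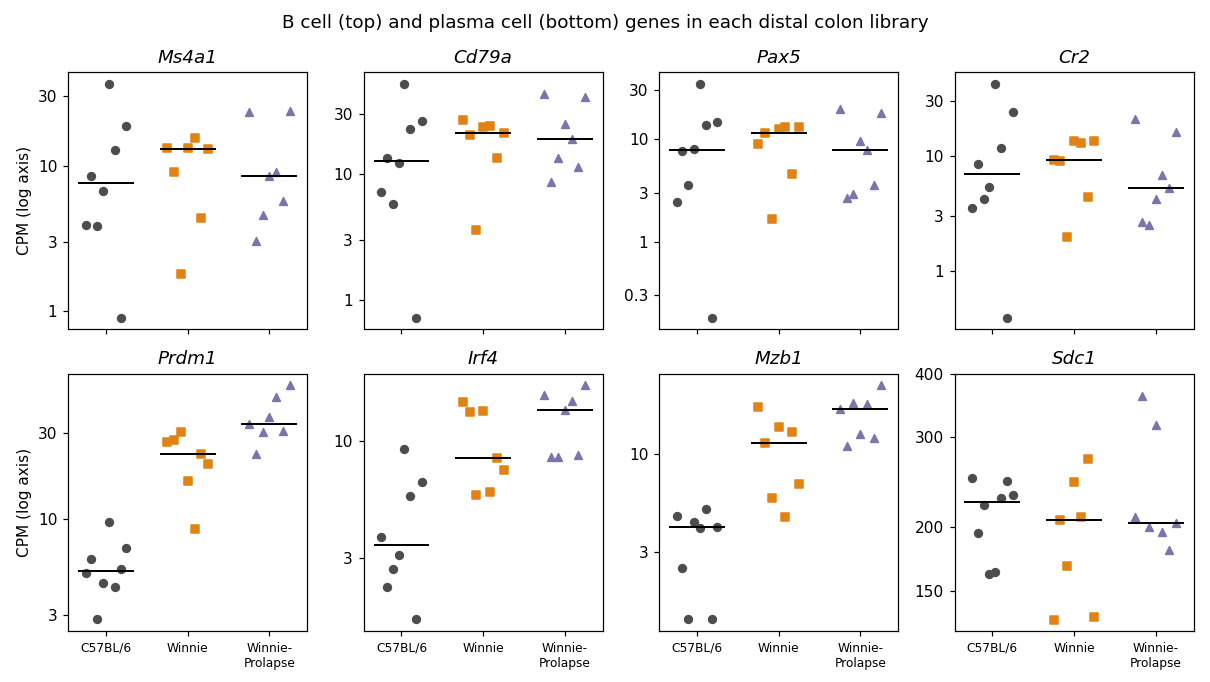
CPM of each gene (y axis, log scale, 1 panel per gene) in the libraries of the 3 groups (x axis), with 1 point per mouse in replicate order and a line at the group median. Prdm1 and Mzb1 separate Winnie-Prolapse from C57BL/6, the Sdc1 panel shows overlapping groups, and the 4 upper panels repeat the same high and low libraries, such as C57BL/6 replicate 5 (highest) and replicate 7 (lowest).

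The B cell genes showed a wide spread between mice, and 0 of 4 were called with edgeR in any of the 3 comparisons (0 of 4 also at an unadjusted p under 0.05 and with DESeq2). The 0.05 rule called 4.27% to 16.7% of all genes higher and 2.72% to 17.7% lower, so 0 of 4 is near these shares. At the unadjusted level, between 2448 of 17041 and 5118 of 17397 genes were higher. Ms4a1, the gene of the surface protein CD20, lies on chromosome 19 from 11249675 to 11266241 (minus strand). It ran from 0.906 to 36.8 CPM with a median of 7.60 in C57BL/6, from 1.81 to 15.5 with a median of 13.1 in Winnie, and from 3.04 to 23.8 with a median of 8.50 in Winnie-Prolapse. The highest C57BL/6 library therefore stood 40.6-fold above the lowest, and both Winnie groups fell inside the control range. The log2 fold change of Ms4a1 was -0.10 ± 0.59 (SE, adjusted p = 0.917) in Winnie and 0.06 ± 0.62 (SE, adjusted p = 0.945) in Winnie-Prolapse.

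Cd79a, which encodes a signalling chain of the B cell receptor and lies on chromosome 7 from 24897381 to 24902197 (plus strand), gave the highest counts of the 4. Its CPM ran from 0.725 to 52.0 with a median of 12.7 in C57BL/6, from 3.59 to 26.6 with a median of 21.1 in Winnie, and from 8.57 to 43.0 with a median of 18.9 in Winnie-Prolapse. The log2 fold change of Cd79a was 0.21 ± 0.58 (SE, adjusted p = 0.806) in Winnie and 0.48 ± 0.59 (SE, adjusted p = 0.505) in Winnie-Prolapse. In this comparison of Winnie with C57BL/6 the SE of the 4 B cell genes lay between 0.58 and 0.65, against 0.26 for Prdm1. Ms4a1 and Pax5 overlap genes on the opposite strand, and since the strand setting of the counting was not given, reads of these genes may be part of their counts.

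Pax5, the factor that holds B cell identity, lies on chromosome 4 from 44524757 to 44710487 (minus strand). It ran from 0.181 CPM (5 counts) to 34.8 CPM (902 counts) with a median of 7.79 CPM in C57BL/6, from 1.66 to 13.1 with a median of 11.4 in Winnie, and from 2.68 to 19.8 with a median of 7.75 in Winnie-Prolapse. Cr2, the complement receptor CD21 of mature B cells and follicular dendritic cells, lies on chromosome 1 from 195136811 to 195176716 (minus strand). Cr2 ran from 0.399 to 42.2 CPM with a median of 6.97 in C57BL/6, from 2.01 to 13.4 with a median of 9.25 in Winnie, and from 2.51 to 21.0 with a median of 5.28 in Winnie-Prolapse. In Winnie-Prolapse against C57BL/6 the log2 fold change was -0.11 ± 0.70 (SE, adjusted p = 0.902) for Pax5 and -0.47 ± 0.71 (SE, adjusted p = 0.593) for Cr2. In Winnie it was -0.09 ± 0.65 (SE, adjusted p = 0.932) and -0.34 ± 0.65 (SE, adjusted p = 0.725). Winnie-Prolapse differed from Winnie by 0.16 ± 0.51 for Ms4a1, 0.27 ± 0.42 for Cd79a, -0.02 ± 0.52 for Pax5 and -0.14 ± 0.52 for Cr2 (log2, SE), with adjusted p between 0.719 and 0.982. Neither Pax5 nor Cr2 was called in any fit that left out 1 library, and the sign of both depended on which one was left out.

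Levels were compared between genes per kilobase of exon. In C57BL/6 the mean CPM per kilobase was 55.7 for Sdc1, 12.0 for Cd79a, 2.81 for Mzb1, 1.87 for Ms4a1, 1.54 for Cr2, 1.20 for Pax5, 1.001 for Prdm1 and 0.887 for Irf4. In Winnie-Prolapse it was 62.6 for Sdc1, 15.7 for Cd79a, 13.5 for Mzb1, 6.53 for Prdm1, 2.59 for Irf4, 1.81 for Ms4a1, 1.04 for Pax5 and 1.03 for Cr2. In C57BL/6 every gap between neighbours below Sdc1 was smaller than the larger SD between mice of the pair, and replicate 5 carries the means of the B cell genes there. In Winnie-Prolapse this held for Cd79a over Mzb1 and for the order among Irf4, Ms4a1, Pax5 and Cr2, while the gaps from Mzb1 to Prdm1 and from Prdm1 to Irf4 were larger than that SD. The gaps were not tested.

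The second question was how the balance between both ends of the path lay in each mouse. The ratio of Mzb1 to Ms4a1 CPM had a median of 0.367 in C57BL/6 (0.110 to 1.44), 1.27 in Winnie (0.296 to 3.23) and 2.05 in Winnie-Prolapse (0.744 to 4.10). The mean log2 CPM of the 4 plasma cell genes less that of the 4 B cell genes averaged 0.54 ± 1.57 (SD) in the 8 C57BL/6 mice, 1.34 ± 1.11 (SD) in the 7 Winnie mice and 1.93 ± 0.87 (SD) in the 7 Winnie-Prolapse mice. The groups overlapped, and these values were not tested, since the genes were chosen with earlier results of these data known. C57BL/6 replicate 7 had the highest difference of all, 3.77, with the lowest B cell level and a plasma cell level that was also among the lowest. Without Sdc1 the group means were -0.88, 0.36 and 1.03 in the same order.

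**Figure D3:**
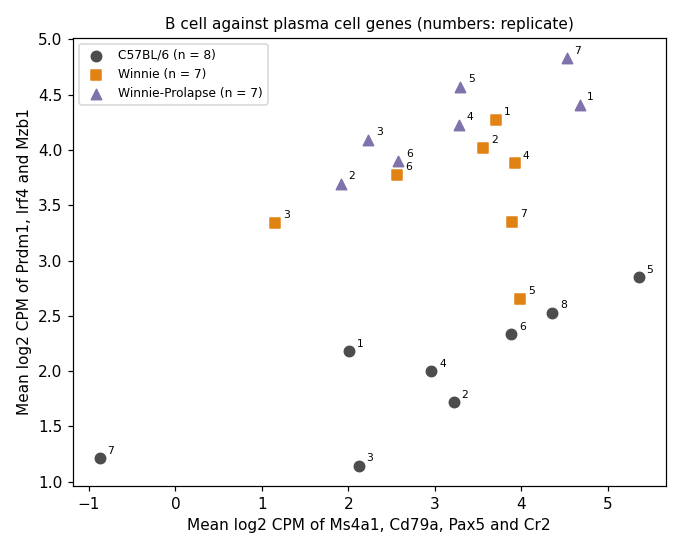
Mean log2 CPM of Prdm1, Irf4 and Mzb1 (y axis) against that of Ms4a1, Cd79a, Pax5 and Cr2 (x axis), with 1 point per mouse labelled by replicate. The y axis holds the 3 plasma cell genes that were called and leaves out Sdc1, so the higher position of Winnie-Prolapse (3.69 to 4.83) over C57BL/6 (1.14 to 2.85) is a description of genes chosen for their calls, and with Sdc1 the ranges are 4.80 to 5.54 and 2.81 to 3.98.

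The members also varied between mice of the same group. After the group mean was removed from log2 CPM, the 6 pairs of B cell genes had a Pearson r between 0.954 and 0.981 over 22 libraries. Each of the 6 had an adjusted p of 5.71e-05 over the 40 pairs computed, from a permutation p of 1e-05, the smallest that the resamples can give. Spearman's rho of the same 6 pairs lay between 0.933 and 0.967. C57BL/6 replicate 7, the lowest library, had 25 counts of Ms4a1, 20 of Cd79a, 5 of Pax5 and 11 of Cr2, while replicate 5, the highest, had 954, 1347, 902 and 1093. In both libraries Sdc1 lay inside the range of the other C57BL/6 mice, at 247 and 164 CPM.

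Irf4 varied with the B cell genes as well as with Mzb1. Its r was 0.766 with Pax5, 0.767 with Cr2, 0.780 with Ms4a1 and 0.804 with Cd79a (permutation test, adjusted p between 0.00015 and 0.000545), with rho between 0.689 and 0.760. Irf4 with Mzb1 had an r of 0.752 and a rho of 0.746 (permutation test, adjusted p = 0.00137). Without the 2 libraries farthest from the median of the first gene, these 5 relations kept an r between 0.620 and 0.760. Within single groups, the r of Irf4 with Ms4a1 was 0.887 in C57BL/6 and 0.908 in Winnie-Prolapse (exact permutation test, adjusted p = 0.016 and 0.00794) and 0.434 in Winnie (adjusted p = 0.637).

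Prdm1 showed no such relation with the B cell genes, with an r between 0.184 and 0.221 (permutation test, adjusted p between 0.451 and 0.514) and a rho between 0.156 and 0.220. The pooled value joins unlike groups, since Prdm1 and Ms4a1 had an r of 0.539 in the controls, -0.573 in Winnie and 0.738 in Winnie-Prolapse (exact permutation test, adjusted p between 0.14 and 0.516). Prdm1 with Irf4 had an r of 0.493 and a rho of 0.367 (permutation test, adjusted p = 0.0561), and Prdm1 with Mzb1 an r of 0.466 and a rho of 0.237 (permutation test, adjusted p = 0.079). Without the 2 libraries farthest from the median of the first gene, Prdm1 passed with Irf4 (r = 0.538) and with Cd79a (r = 0.552), each with a permutation test adjusted p of 0.0296. Mzb1 with the B cell genes had an r between 0.482 and 0.610, of which only Cd79a passed (permutation test, adjusted p = 0.0159), with a rho of 0.509 that did not (adjusted p = 0.0518) and an r of 0.401 without the 2 farthest libraries. Sdc1 had an r between -0.348 and -0.135 with the other 7 genes, and none of these passed.

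**Figure D4:**
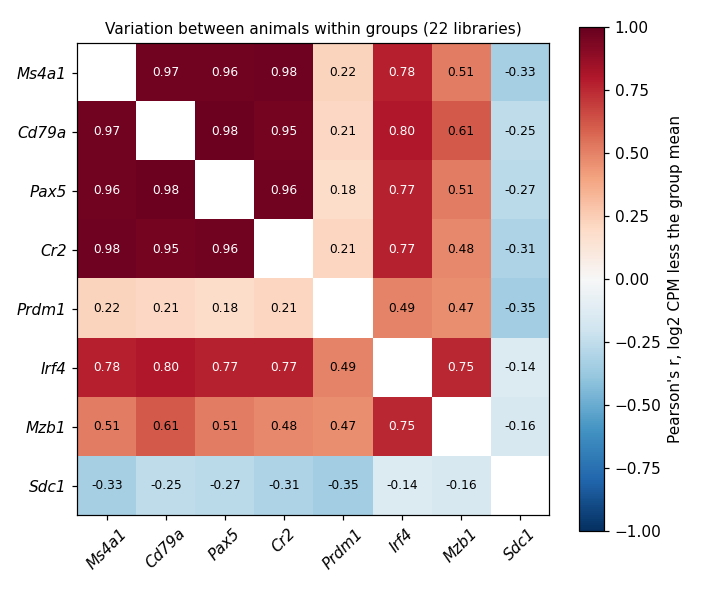
Pearson's r of log2 CPM less the group mean for each pair of the 8 genes over 22 libraries (colour and printed value). The B cell genes form a block above 0.95, Irf4 stands next to it at 0.77 to 0.80, and Sdc1 is weakly negative with all others.

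Markers of T cells, macrophages and dendritic cells were counted in the same fits. All 8 T cell markers (Cd3e, Cd3d, Cd3g, Trac, Cd4, Cd8a, Cd28 and Il2ra) were called higher in Winnie than in C57BL/6 by the 0.05 rule, and 7 of 8 in Winnie-Prolapse by the 0.001 rule, beside 7.42% and 9.84% of all genes. Summed over the 8, they gave 5.25 to 21.9 CPM in C57BL/6, 16.3 to 43.7 in Winnie and 22.4 to 54.5 in Winnie-Prolapse. The 6 macrophage markers summed to 57.02 to 136 CPM, 79.3 to 227 and 166 to 313, and 3 and 6 of them were called by those rules. The 8 dendritic cell markers summed to 141 to 209 CPM, 164 to 194 and 148 to 221, and 3 and 1 of them were called. The 1 of 8 in Winnie-Prolapse is near the 9.84% of all genes. By the 0.05 rule 5 of the 8 were called in Winnie-Prolapse, where 16.7% of all genes were. The ranges of the dendritic cell sums overlapped between all groups, and most of each group's mean sum was Tcf4, which did not pass and had a mean between 133 and 146 CPM in the 3 groups. Itgax and Bst2 were higher in Winnie-Prolapse than in C57BL/6 by 1.45 ± 0.34 (log2, SE, adjusted p = 0.0023) and 1.51 ± 0.15 (log2, SE, adjusted p = 1.63e-06). Zbtb46 and Siglech of the same list had means of 2.27 and 1.33 CPM in C57BL/6 and 2.22 and 1.41 CPM in Winnie-Prolapse. In Winnie they lay at -0.26 ± 0.20 and -0.18 ± 0.42 (log2, SE) and were not called. None of these 22 markers was at 0 in any library. Within groups, Itgax of the dendritic cell list had an r of 0.871 with Irf4, 0.692 with Mzb1 and 0.576 with Prdm1 (permutation test, adjusted p = 5.71e-05, 0.00214 and 0.0207), with a rho of 0.843, 0.633 and 0.607. The relation of Mzb1 with Itgax did not pass without the 2 libraries farthest from the median of Mzb1 (r = 0.528, permutation test, adjusted p = 0.0638). Cd3e had an r of 0.686 with Irf4 (rho 0.665, permutation test, adjusted p = 0.00197) and of 0.535 with Mzb1 (rho 0.517, permutation test, adjusted p = 0.0413), the latter not passing without the 2 farthest libraries (adjusted p = 0.121). Cd3e with Sdc1 passed by rho alone (rho -0.549, permutation test, adjusted p = 0.0392, r -0.492, adjusted p = 0.0561), and its r did not pass without the 2 farthest libraries either (adjusted p = 0.257). Epcam, the epithelial gene, had no relation that passed with Prdm1, Irf4, Mzb1 or Sdc1. The part of these cells in the Prdm1, Irf4 and Mzb1 levels was not tested.

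The genes most like each member were sought among 17769 genes by Pearson's r of log2 CPM less the group mean, as a description over 22 libraries. Ms4a1 was near to Cxcr5 (0.993) and H2-Ob (0.989). Cd79a was nearest to Cd79b (0.994), its partner in the receptor, followed by Ighd (0.985) and Cd22 (0.985). Pax5 had Cd22 (0.991), Ighd (0.990) and Fcer2a (0.985), and Cr2 had H2-Eb2 (0.987), H2-Ob (0.981) and Blk (0.978). All these neighbours of the B cell genes are genes of B cells or of antigen presentation. The plasma cell genes had looser and less alike neighbours. Mzb1 was nearest to AI662270 (0.862), Igkj2 (0.831) and Igkc (0.824), the last 2 being parts of the kappa light chain. Prdm1 was nearest to Irf9 (0.826), 9330175E14Rik (0.816) and Slc33a1 (0.802), and Irf4 to St8sia4 (0.925), Dock2 (0.919) and Itgb7 (0.909). The nearest to Sdc1 were Epha1 (0.814), Npc1 (0.811) and Rab3gap2 (0.790).

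Lists of other genes of the path were counted in the same fits. The shares of all genes called higher, to set beside these counts, were 0.0868% (0.001 rule) and 7.42% (0.05 rule) in Winnie and 9.84% and 16.7% in Winnie-Prolapse. At an unadjusted edgeR p under 0.05, 3544 of 17289 genes were higher and 3357 lower in Winnie. Of 15 further B cell identity genes, 0 were called in Winnie by either rule with edgeR (1 at an unadjusted p under 0.05) and 1 in Winnie-Prolapse by the 0.05 rule, under the share of all genes. Their median log2 fold change was -0.09 in Winnie and 0.01 in Winnie-Prolapse, and over all genes it was -0.01 in both. The exception was Pou2af1, a coactivator that plasma cells keep, which was higher by 1.88 ± 0.42 (log2, SE, adjusted p = 0.00149). It rose from a median of 8.51 CPM in C57BL/6 (1.23 to 20.1) to 34.5 CPM in Winnie-Prolapse (16.6 to 47.4). Spib, a transcription factor of B cells, had a value of -0.42 ± 0.47 (log2, SE, adjusted p = 0.471) in Winnie-Prolapse and did not pass.

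Of 15 further plasma cell genes, 0 were called in Winnie by the 0.001 rule with edgeR, 7 by the 0.05 rule and 12 had an unadjusted p under 0.05, and in Winnie-Prolapse 9 and 10 were called. Except for the count of 0, these lie above the shares of all genes, with 3544 of 17289 higher at the unadjusted level in Winnie. The list was chosen with earlier results of these data known, so these counts are a description only. All 15 had positive log2 fold changes in both comparisons, with a median of 0.74 in Winnie and 1.18 in Winnie-Prolapse. Their levels differed widely, with C57BL/6 means of 181 CPM for Xbp1 and 160 CPM for Txndc5 against 0.663 CPM for Tnfrsf17. The part of goblet cells and other secretory cells in these levels was not tested. Jchain, which joins IgA and IgM into polymers, ran from 73.6 to 373 CPM in C57BL/6, from 287 to 1347 in Winnie and from 799 to 1552 in Winnie-Prolapse. Its log2 fold change was 2.09 ± 0.39 (SE, adjusted p = 0.0035) in Winnie and 2.82 ± 0.33 (SE, adjusted p = 7.48e-06) in Winnie-Prolapse. Xbp1, the factor that builds the secretory apparatus and that goblet cells use too, changed by 0.54 ± 0.11 (SE, adjusted p = 0.00524) and 0.93 ± 0.12 (SE, adjusted p = 1.23e-05). Txndc5, a folding enzyme, changed by 0.52 ± 0.12 (SE, adjusted p = 0.00773) and 0.62 ± 0.10 (SE, adjusted p = 0.000109). The Winnie changes of Xbp1 and Txndc5 were under the 1.5-fold limit.

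**Figure D5:**
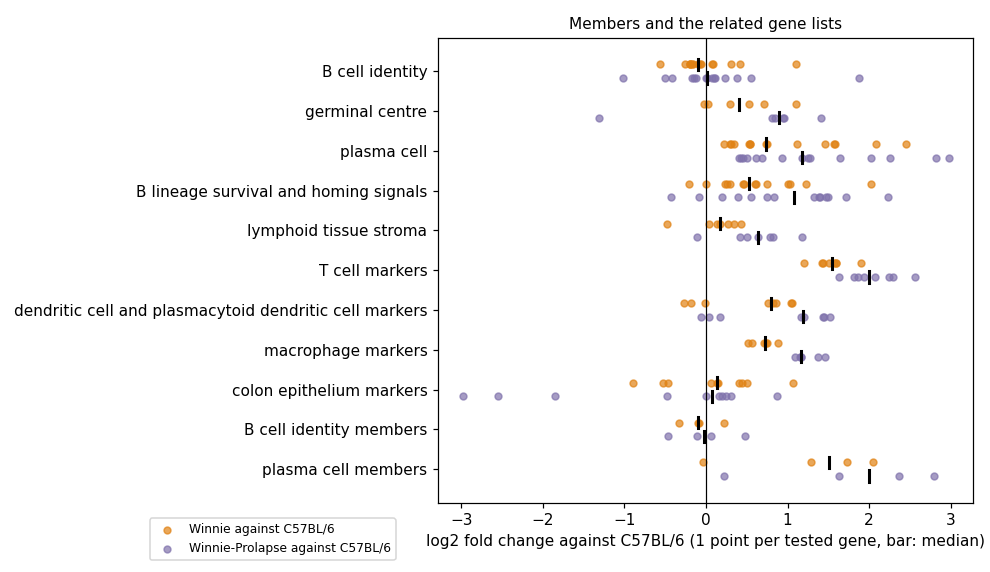
Log2 fold change against C57BL/6 (x axis) of each tested gene of the lists (rows), for Winnie and Winnie-Prolapse, with a bar at the list median. The B cell identity rows have medians between -0.09 and 0.01, with single genes from -1.01 (Fcer2a) to 1.88 (Pou2af1) in Winnie-Prolapse. The further plasma cell genes lie right of 0 at medians of 0.74 and 1.18, as do T cell markers at 1.54 and 2.001.

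Between both ends lies the germinal centre, where activated B cells mutate their receptors. Of 8 such genes, 6 passed the filter on low counts. In Winnie 2 of the 6 were called by the 0.05 rule, and in Winnie-Prolapse 5 by the 0.05 rule and 1 by the 0.001 rule. The 2 in Winnie were Gcsam at 1.10 ± 0.31 (log2, SE, edgeR adjusted p = 0.0186) and Mybl1 at 0.72 ± 0.22 (log2, SE, edgeR adjusted p = 0.0285). The shares of all genes called higher were 7.42%, 16.7% and 9.84%, so the count at 0.001 is near that of all genes. Bcl6, the repressor of the germinal centre state, had a difference of 0.02 ± 0.17 (SE, adjusted p = 0.93) in Winnie and 0.84 ± 0.19 (SE, adjusted p = 0.00143) in Winnie-Prolapse. Fas, a death receptor, had differences of 0.52 ± 0.20 (SE, adjusted p = 0.067) and 0.81 ± 0.16 (SE, adjusted p = 0.000519), and S1pr2, a receptor that keeps cells in the follicle, had differences of -0.02 ± 0.17 (SE, adjusted p = 0.93) and 0.95 ± 0.21 (SE, adjusted p = 0.00151). The Winnie values of these 3 genes did not pass. Rgs13, named after its value was seen, lay the other way in Winnie-Prolapse, at -1.31 ± 0.58 (SE, adjusted p = 0.0684), and did not pass. Bcl6, Fas and S1pr2 are also expressed by other cells of the colon, and the part of other cells in the levels of this list was not tested.

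Signals for survival and homing were the last group. Of 16 genes, 14 passed the filter in both comparisons with C57BL/6, and 6 were called higher in Winnie by the 0.05 rule. In Winnie-Prolapse 8 were called by that rule and 2, Tnfsf13b and Ccr10, by the 0.001 rule. The 2 of 14 at 0.001 are near the 9.84% of all genes, while 7.42% and 16.7% of all genes were called at 0.05. Both were outside the 3 most abundant genes of the list and are named for their calls. Tnfsf13b, the gene of the survival factor BAFF, changed by 0.75 ± 0.26 (SE, adjusted p = 0.0465) in Winnie and 1.33 ± 0.22 (SE, adjusted p = 0.000137) in Winnie-Prolapse. Ccr10, the receptor that guides IgA plasma cells to the colon, changed by 2.02 ± 0.34 (SE, adjusted p = 0.00218) and 2.23 ± 0.27 (SE, adjusted p = 1.03e-05). The ligand of this receptor, Ccl28, did not pass, at 0.29 ± 0.20 (SE, adjusted p = 0.283) and 0.20 ± 0.31 (SE, adjusted p = 0.616), nor did Pigr, which carries IgA across the epithelium, at 0.23 ± 0.12 (SE, adjusted p = 0.169) and -0.09 ± 0.25 (SE, adjusted p = 0.772). Of 7 stroma genes of lymphoid tissue, 0 were called in Winnie by either rule with edgeR (1 at an unadjusted p under 0.05), and in Winnie-Prolapse 1, Ccl21a, was called by the 0.05 rule at 0.78 ± 0.18 (SE, adjusted p = 0.00186), under the 16.7% of all genes.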

How the data were processed

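RNA of distal colon from 22 mice was sequenced by the authors as stranded poly(A) libraries in paired ends, and the RNAsik pipeline was run on GRCm38. The labels' processing notes name STAR, featureCounts and limma. The deposited values are raw read counts for 46078 genes in 22 libraries, and the strand and multi-mapping settings were not given in the sources used here. Genes were followed by identifier, with locations from GENCODE M21.

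Each comparison was fitted on its 2 groups with edgeR 4.0.16 in R 4.3.3 (TMM, filterByExpr, quasi-likelihood F test, Benjamini-Hochberg over all genes tested). The fits against C57BL/6 were tested on simulated data. Of simulated 2-fold changes, 46.5% were recovered in Winnie and 40% in Winnie-Prolapse at an adjusted p under 0.001. At 0.05 the shares recovered were 70.5% and 68.5%. The changed genes were drawn at random from all genes tested, so these shares are not those of the B cell genes. In Winnie the 95% limits of the Ms4a1 log2 fold change, from its SE, ran from -1.26 to 1.06, which includes 2-fold changes. CPM used library totals, and log2 CPM a prior count of 2. Correlations removed the group mean and used two-sided permutations within groups, 100000 resamples over 40 pairs, exact within a group. A count of 0 allows up to 3 counts, and such limits cover counting error only.

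The members and lists were chosen with earlier results of these data known. Besides the members, the genes named were the 3 most abundant of each list and the 3 most similar to each member, and others are named for their calls. A few of these are not reported here. Of 115 list genes 114 were found. Promoter windows came from RefSeq. The alternatives were library totals, DESeq2 1.42.0, limma-voom 3.58.1, other edgeR fits, other filters, sex as a covariate, each sex alone, all groups in 1 fit, no milk protein counts, and leaving out each library. The labels give 7 Winnie mice, all used here, which is not the number in the study's text. Replicate numbers follow the sample list and pair no mice, and the labels name no batch.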

Additional observations from a re-analysis of the deposited data

Results flagged for a closer look

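Pax5 in C57BL/6 replicate 5 stood far from the other controls, at 34.8 CPM against 14.6 CPM in the next library and a mean of 7.18 ± 5.55 CPM (SD, n = 7) in the others. Its gap to the nearest library was 0.583 of the range of the group, above the limit of 0.526 for 8 samples. Of the 24 sets of values examined (8 genes in 3 groups) this was the only 1, and chance gives about 1 in 20. The same library was the highest C57BL/6 library for Ms4a1, Cd79a and Cr2, which did not pass that limit.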

How the results depend on the processing

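The count of members called in Winnie against C57BL/6 at an adjusted p under 0.001, 1 gene (Prdm1), was 0 with library totals, limma-voom, sex as a covariate, females alone and a filter of 10 counts in each library, and 2 (with Mzb1) with DESeq2 and the likelihood ratio test. It lay between 0 and 1 when 1 library was left out. At 0.05 the count of 3 was 0 in females alone. In Winnie-Prolapse against C57BL/6 the 3 calls became 1 (Prdm1) in males alone and in females alone. The Irf4 call was also lost with library totals (adjusted p = 0.00122). In Winnie-Prolapse against Winnie 1 gene, Prdm1, was called at 0.05 with DESeq2, the likelihood ratio test, all 3 groups in 1 fit and females alone, and 0 to 1 when 1 library was left out (1 without Winnie-Prolapse replicate 2). The causes were not tested, except that fits of 1 sex hold fewer mice.

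The plasma minus B difference was -1.23, 0.21 and 0.88 from Mzb1 and Ms4a1 alone in C57BL/6, Winnie and Winnie-Prolapse, and 1.03 without Sdc1 in Winnie-Prolapse.

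Signs reversed only for log2 fold changes that were never called. With limma-voom, Winnie gave 0.31 for Ms4a1, 0.62 for Pax5 and 0.34 for Cr2, and Winnie-Prolapse 0.44 for Pax5. With sex as a covariate, Ms4a1 in Winnie was 0.0031, and Pax5 was 0.16 in Winnie-Prolapse against C57BL/6 and 0.0674 against Winnie. Males alone gave 0.56 (Ms4a1), 0.50 (Pax5) and 0.38 (Cr2) in Winnie, 0.75 (Pax5) and 0.54 (Cr2) in Winnie-Prolapse, and 0.26 (Pax5) and 0.18 (Cr2) in Winnie-Prolapse against Winnie. Females alone gave -0.20 (Cd79a) and 0.10 (Sdc1) in Winnie, -0.29 (Ms4a1) and -0.008 (Sdc1) in Winnie-Prolapse, and -0.13 (Sdc1) against Winnie. Library totals gave -0.0385 for Ms4a1 in Winnie-Prolapse. Leaving out 1 library gave -0.28 to 0.43 (Ms4a1), -0.28 to 0.47 (Pax5), -0.52 to 0.25 (Cr2) and -0.16 to 0.0368 (Sdc1) in Winnie, -0.30 to 0.60 (Ms4a1), -0.45 to 0.45 (Pax5) and -0.91 to 0.13 (Cr2) in Winnie-Prolapse, and -0.16 to 0.33 (Ms4a1), -0.33 to 0.14 (Pax5) and -0.54 to 0.0287 (Cr2) against Winnie.

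Of the refitted log2 fold changes, 572 kept their direction and side of the limit, 57 reversed, 31 lost a call and 2 gained one. With 5 to 25 counts in C57BL/6 replicate 7, the B cell genes are imprecise there.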
